A study of Mus musculus with 6 samples.

Results

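Histone genes were examined in mouse CD8+ T cells from the spleen, the cytotoxic lineage of T lymphocytes, stimulated for 48 h with antibodies to CD3, part of the antigen receptor, and to the costimulatory receptor CD28. The cells were WT, and 3 libraries came from control cultures and 3 from cultures with DOPAC (3,4-dihydroxyphenylacetic acid), a breakdown product of dopamine. All 6 libraries shared the stimulation. The sources used here do not give the strain or age of the mice, the dose of DOPAC or any vehicle in the controls. Whether replicates were separate animals or cultures is not in the labels. The p-values therefore reflect no more than the spread among these 6 libraries, and this spread may be technical. Members were chosen by gene name alone: names of linker (H1) and core (H2A, H2B, H3 and H4) histones and of macroH2A were taken, and MHC genes with H2- names were not. This gave 23 of the 11175 genes in the table. They were 12 replication-dependent genes, 8 genes of variant histones and 3 retrocopies of the H3.3 gene. No replication-dependent H2A or H3 gene was among them, and those classes are not analysed here.

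Histones package DNA into nucleosomes, and a dividing cell must make a new set for each copied genome. Replication-dependent histone genes lie in clusters, have no introns and are expressed in S phase. Their mRNAs typically end in a short stem-loop, which the protein SLBP binds, in place of a poly(A) tail. Variant histones are made from genes elsewhere in the genome, usually as ordinary polyadenylated mRNAs, throughout the cell cycle and in resting cells. The cDNA kit named in the labels primes from poly(A) tails, so replication-dependent transcripts without a tail are captured poorly by such kits. Which part of each gene's RNA carried a tail was not measured.

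The stem-loops are shown because they are the sequence feature by which replication-dependent histone transcripts are known. A script searched the annotated transcript of each gene, on the sense strand, within 100 bases after the stop codon for the 16-base pattern GGNNNNTTTNNNNNCC whose first 6 bases pair perfectly with the last 6. The pattern was found in 9 of the 20 protein-coding members and in 0.221% of 21703 coding gene models (48 models, 43 of them named as clustered histone genes). In the 9 members it began 24 to 46 bases after the stop codon. Sequences are from GENCODE M21 transcripts on GRCm38 (mm10), 5′ to 3′, as DNA letters. Capitals mark the stem-loop, and up to 5 bases on each side are in lower case.
H1f2: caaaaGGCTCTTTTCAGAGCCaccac
H2bc8: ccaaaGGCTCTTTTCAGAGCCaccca
H2bc11: ccaaaGGCTCTTTTCAGAGCCacgca
H2bc14: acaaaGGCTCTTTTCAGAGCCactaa
H2bc12: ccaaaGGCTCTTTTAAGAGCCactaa
H4c17: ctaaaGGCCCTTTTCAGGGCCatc
H4c2: caaaaGGTCCTTTTCAGGACCactca
H4c9: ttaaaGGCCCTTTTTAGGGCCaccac
H2ax: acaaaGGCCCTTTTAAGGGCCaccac

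These 9 genes held 6 different 16-base stem-loops, and 4 of them shared 1 exactly. H2ax, the only variant gene with a match, is known to yield both a stem-loop mRNA and a longer polyadenylated one. The annotated transcript ran on past the stem-loop by 822 bases in H2ax, 840 in H1f2, 330 in H4c9 and 155 in H2bc8. In the other 5 genes it ended 3 to 46 bases after the stem-loop. H2ax and H4c9, with mean levels of 18.0 and 9.66 FPKM over the 6 libraries, were the most abundant of the 9 (FPKM are fragments scaled to transcript length and library size, so levels of different genes are compared per length). H2bc11 came next at 4.13 FPKM, and the other 6 had means between 1.16 and 2.86 FPKM. No match was found in H1f1, H1f5, H2bc4 and H2bc13. The annotated transcript of H1f1 ends 48 bases after the stop codon, so the later stem-loop positions among those found would not fit in it. The annotated transcripts of H2bc13 and H1f5 end at the stop codon, so nothing could be searched there, and H2bc4 is annotated with a second exon and 742 bases after the stop codon.

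**Figure D1:**
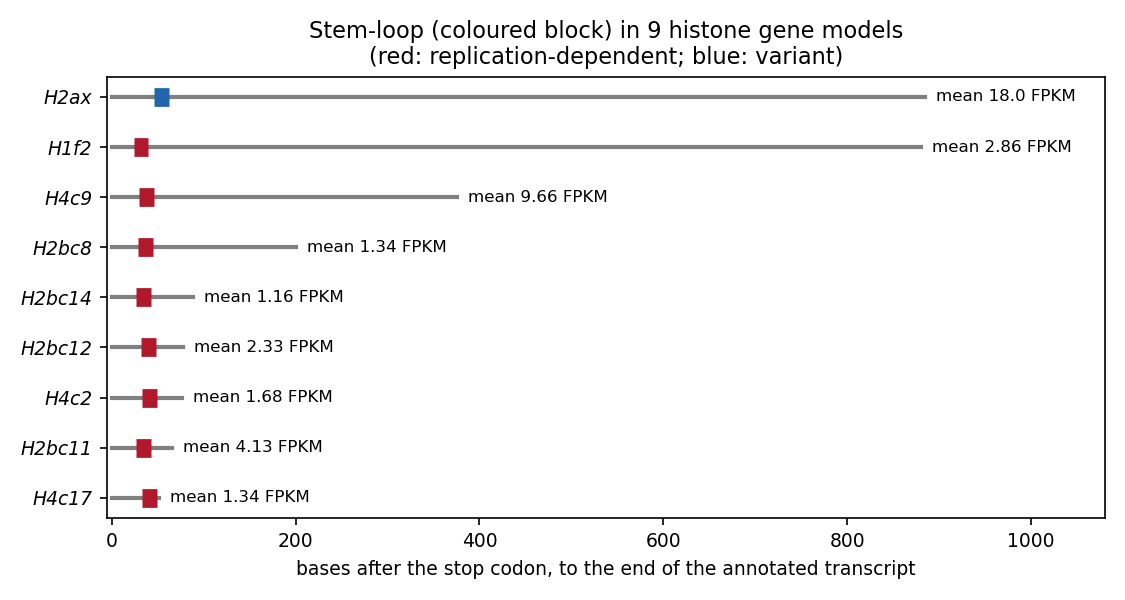
Position of the stem-loop (coloured block, 16 bases) in the annotated 3′ end of 9 histone genes. The horizontal axis gives bases after the stop codon, each grey line runs to the end of the annotated transcript, and the mean level over 6 libraries is printed beside it. All blocks begin 24 to 46 bases after the stop codon, while the line runs 822 bases further in H2ax and 3 bases further in H4c17.

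All 12 replication-dependent genes lay in 2 stretches of mouse chromosome 13, 7 of them from chr13:21715763-22043676 and 5 from chr13:23571396-23764406 (GRCm38, GENCODE M21). Of these 12, 11 have 1 exon, as do the variant genes H1f0, H2aj and H2ax. The other 5 variant genes have 4 to 9 exons. The 6 H2B coding sequences were 96.6% to 98.95% identical to each other and the 3 H4 coding sequences 95.8% to 96.8%, so reads of one copy may have been counted for another. The annotation lists 67 coding genes with clustered histone names, and the table analysed here holds 12 of them.

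Before the results, the libraries need a word. FPKM summed to between 283818 and 316035 per library, there are no read counts, and the depth is unknown. Control replicate 1 correlated with the other 5 libraries at 0.899 to 0.917 across genes, while those 5 correlated at 0.974 to 0.992 (Pearson's r of log2(FPKM + 1); genes are not independent). Every fold change is therefore given with and without it. All 8 CD8 T cell markers were listed and summed to between 1019 and 1082 FPKM in the controls and between 963 and 1074 FPKM with DOPAC. Of the markers of other cells, 0 of 4 for CD4 T cells, 0 of 2 for NK cells, 2 of 7 for B cells, 3 of 10 for myeloid cells, 2 of 6 for erythroid cells and 3 of 5 for fibroblasts were listed. The summed myeloid markers lay between 15.4 and 35.2 FPKM in the controls and between 4.77 and 13.02 FPKM with DOPAC. The fibroblast collagens lay between 25.7 and 27.9 FPKM and between 0.330 and 16.01 FPKM, the erythroid globins between 2.72 and 10.4 FPKM and between 0.280 and 3.02 FPKM, and the 2 B cell genes between 145 and 156 FPKM and between 127 and 155 FPKM. The B cell sum was mostly Ighm, while Cd79b measured 1.47 to 2.61 FPKM. The part of these markers of other cells in the histone values was not tested. Fewer cells of a type and less RNA per cell cannot be told apart in bulk samples.

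In these poly(A)-primed libraries variant genes supplied most of the FPKM of the 23 histone genes listed. Replication-dependent transcripts are captured poorly by such kits, and most clustered histone genes were not listed. Values per library are given in the order of replicates 1 to 3 throughout. The 23 genes together measured 709, 639.8 and 702 FPKM in control replicates 1 to 3 and 788, 686 and 677 FPKM in the DOPAC replicates, or 0.225% to 0.249% of all FPKM. H2az1, H3f3b, H3f3a and Macroh2a1 alone made up 92.0% and 92.6% of that sum in control replicates 2 and 3 and 92.4% and 92.8% in DOPAC replicates 2 and 3. In replicate 1 their share was lower in both groups, at 81.4% in the control and 84.5% with DOPAC. The 12 replication-dependent genes summed to 54.9, 19.2 and 21.0 FPKM in the control replicates against 35.7, 23.2 and 20.8 FPKM in the DOPAC replicates. Replicate 1 was the highest library of each group in this sum, and the groups overlapped.

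**Figure D2:**
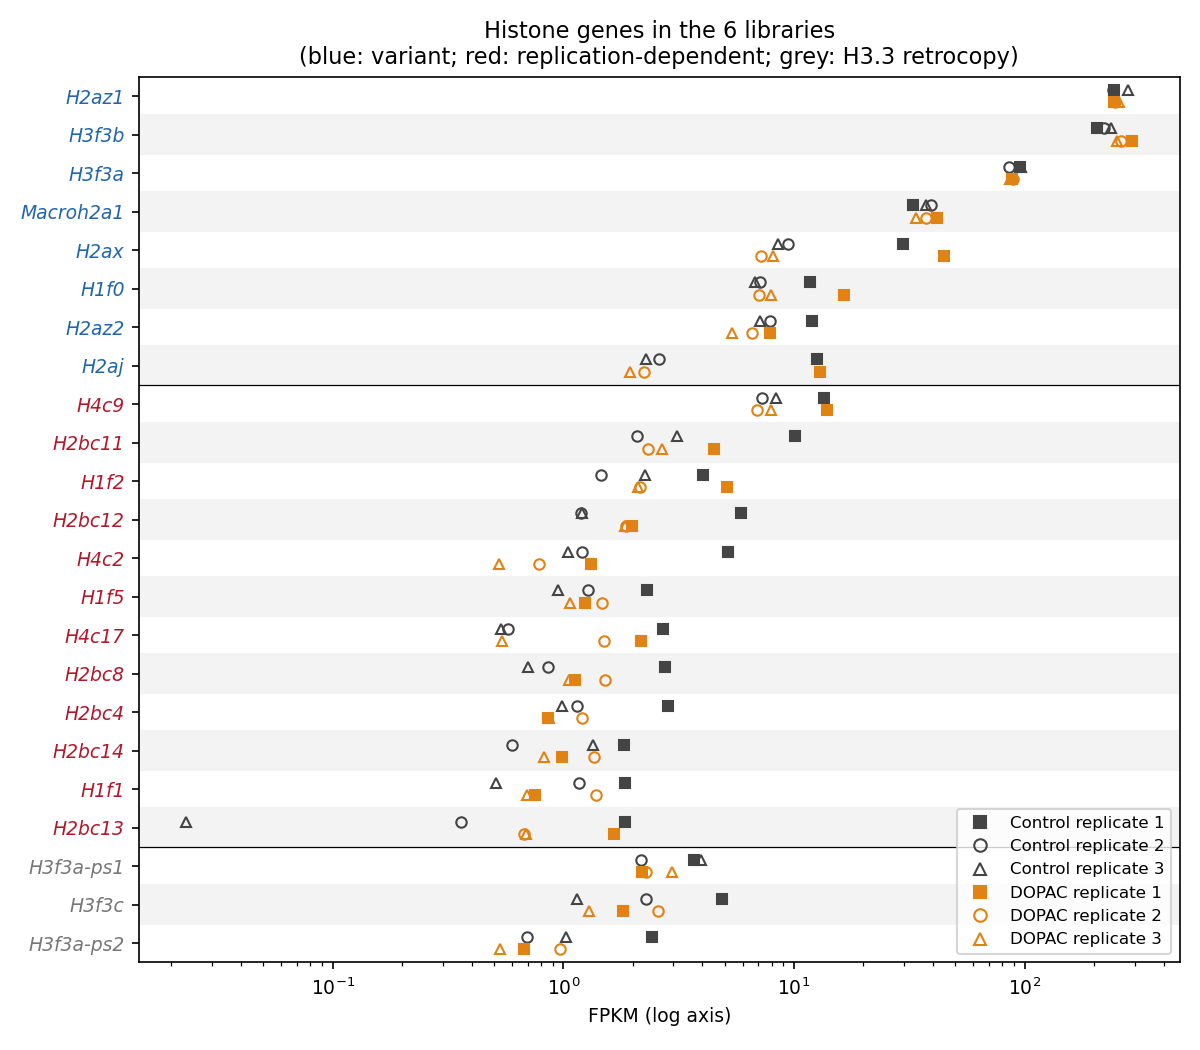
Level of the 23 histone genes in each library, in FPKM on a log axis, with variant genes at the top, replication-dependent genes in the middle and H3.3 retrocopies at the bottom, each ordered by mean. Grey symbols are control and orange symbols DOPAC libraries, and filled squares are replicate 1. The squares stand to the right of the other symbols in both colours for H2ax, H2aj, H1f0, H4c9 and H1f2. Of the 4 most abundant variants H2az1 and H3f3a show the least spread, and H3f3b runs from 205 to 293 FPKM.

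No histone gene passed the test of DOPAC against control. Of the 22 members with a mean of at least 1 FPKM, 0 had a Benjamini-Hochberg adjusted p under 0.05 with limma, as had 0% of the 10887 genes tested. At an unadjusted p under 0.05 there were also 0 of 22, beside 4.19% of all genes tested. With control replicate 1 left out the adjusted count stayed 0 of 22 (0.0184% of all genes, 2 genes), and 1 of 22 members had an unadjusted p under 0.05, beside 14.5% of all genes (5.57% higher with DOPAC, as this member was, and 8.89% lower). The groups did not overlap in 1 of 22 members, H3f3b, which was higher with DOPAC (12.4% of all genes were so), and in 0 of 22 lower with DOPAC (4.8% of all genes). H2bc13, with a mean of 0.875 FPKM, was left out of the test by the filter on low values.

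H3f3b and H3f3a encode the same protein, H3.3, which replaces H3 at active genes and elsewhere outside of replication. H3f3b, at chr11:116021912-116027962 on the minus strand, measured 205, 221 and 237 FPKM without and 293, 262 and 251 FPKM with DOPAC. All 3 DOPAC libraries lay above all 3 controls. Its log2 difference (DOPAC minus control, in means of log2(FPKM + 1)) was 0.28 (95% limits -0.013 and 0.57; limma adjusted p = 0.801). No other member had a lower p. With control replicate 1 left out it was 0.22 (95% limits -0.0012 and 0.45; adjusted p = 0.346), and the value stayed positive in all 17 alternative fits, from 0.16 to 0.34. With all 3 DOPAC libraries above all 3 controls, fits that only left out libraries or changed the pseudocount or filter could not be negative. In the authors' deposited table H3f3b had a p of 0.0694 and an adjusted p of 0.801.

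H3f3a, at chr1:180800832-180813943 on the minus strand, measured 95.3, 85.9 and 96.2 FPKM in the control replicates against 88.0, 88.7 and 86.0 FPKM in the DOPAC replicates. The groups overlapped, with a log2 difference of -0.076 (95% limits -0.34 and 0.19; adjusted p = 0.852), or -0.054 without control replicate 1. Its exons overlap the antisense gene H3f3aos and Gm17275, and the libraries do not mark strand. Together the pair measured 300.4, 307 and 333 FPKM without and 381, 350.2 and 337 FPKM with DOPAC. H3f3b supplied 68.3%, 72.0% and 71.1% of the H3.3 transcripts in the controls and 76.9%, 74.7% and 74.4% with DOPAC. These means were 70.5 ± 1.97% and 75.3 ± 1.36% (SD, n = 3 each). The two-sided exact permutation test gave p = 0.1, which is the lowest value possible for 3 against 3 (adjusted 0.2 over 2 such shares). The groups did not overlap, and the 2 remaining controls averaged 71.6% without control replicate 1. This share was chosen after the values of its genes were seen.

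The 3 H3.3 retrocopies are processed pseudogenes in the annotation, copies of an mRNA set back into the genome. H3f3a-ps1 on the X chromosome, H3f3a-ps2 on chromosome 16 and H3f3c on chromosome 2 were 98.3%, 98.8% and 99.03% identical to the H3f3a coding sequence and 75.9% to 76.4% identical to that of H3f3b. Reads of H3f3a may therefore have been counted for them. They summed to 11.03, 5.17 and 6.15 FPKM in the control replicates against 4.68, 5.82 and 4.79 FPKM in the DOPAC replicates. Control replicate 1 held the highest value and the groups overlapped. The log2 differences lay between -0.41 and -0.28, and between -0.20 and 0.097 without control replicate 1.

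H2A.Z, which marks promoters and enhancers, is encoded by H2az1 and H2az2. H2az1, at chr3:137864487-137866922, was the most abundant histone gene, with a mean of 252 FPKM over the 6 libraries. It measured 244, 242 and 279 FPKM without and 243, 246 and 258 FPKM with DOPAC. The groups overlapped, and the log2 difference was -0.033 (95% limits -0.31 and 0.24; adjusted p = 0.937), or -0.063 without control replicate 1. Across the 6 libraries H2az1 varied 1.15-fold and H3f3a 1.12-fold from lowest to highest.

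H2az2, at chr11:6427229-6444443 on the minus strand, measured 11.9, 7.88 and 7.14 FPKM in the control replicates against 7.84, 6.54 and 5.40 FPKM in the DOPAC replicates. Each DOPAC library lay below the control of its own number, while DOPAC replicate 1 lay above control replicate 3, so the groups overlapped. The log2 difference was -0.38 (95% limits -0.90 and 0.15; limma adjusted p = 0.801), or -0.18 without control replicate 1 (95% limits -0.53 and 0.18). Without both libraries numbered 1, an alternative added once the values were known, it was -0.29 (95% limits -0.56 and -0.024; limma adjusted p = 0.285). There 3 of 22 members had an unadjusted limma p under 0.05, as had 1790 of the 10887 genes tested. With the replicate number as a block the unadjusted limma p was 0.047 and the adjusted p 0.698. In that fit 2 of 22 members, H2az2 and H4c2, were lower at an unadjusted p under 0.05, beside 1.91% of all genes tested. H2az2 supplied 4.65%, 3.15% and 2.49% of the H2A.Z transcripts in the controls and 3.13%, 2.59% and 2.05% with DOPAC (exact permutation p = 0.4, two-sided; adjusted 0.4 over the 2 shares).

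**Figure D3:**
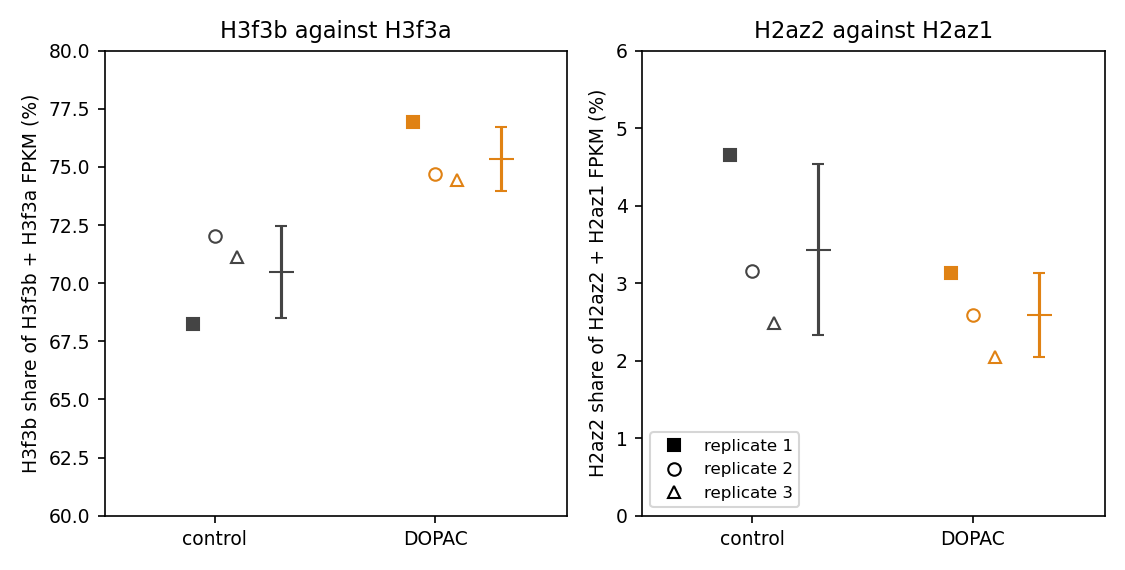
Share of H3.3 transcripts from H3f3b (left, axis from 60%) and of H2A.Z transcripts from H2az2 (right), in percent of the summed FPKM of each gene pair. Symbols are libraries, and the bars beside them give the mean and SD of 3 libraries. The H3f3b share is 74.4% or more in every DOPAC library and 72.0% or less in every control, while the H2az2 shares of the groups overlap.

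Macroh2a1, which encodes an H2A with a large added domain found in silent chromatin, measured 32.8, 39.3 and 37.5 FPKM without and 41.6, 37.2 and 33.7 FPKM with DOPAC. The groups overlapped, and DOPAC minus control was 0.036 on the log2 scale (95% limits -0.29 and 0.36; adjusted p = 0.943), or -0.037 without control replicate 1. The gene lies at chr13:56073619-56136361 on the minus strand, outside the clustered genes, and its exons overlap Gm47071. The limits span differences in both directions, so the test does not show that the level stayed the same.

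H2ax, H2aj and H1f0 varied more between replicate numbers than between treatments. H2ax encodes H2A.X, which is phosphorylated at DNA double-strand breaks, and lies at chr9:44334694-44336077. It measured 29.7, 9.45 and 8.54 FPKM in control replicates 1 to 3 and 44.6, 7.23 and 8.10 FPKM in DOPAC replicates 1 to 3. Replicate 1 was 3.31 times the mean of replicates 2 and 3 in the controls and 5.83 times with DOPAC. Between treatments the log2 difference was 0.053 (95% limits -1.74 and 1.85; adjusted p = 0.989), 0.59 without control replicate 1, -0.75 without DOPAC replicate 1 and -0.21 without both.

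H2aj, which encodes a replacement form of H2A and lies at chr6:136808244-136810074, was also highest in replicate 1 of each group. It measured 12.5, 2.60 and 2.29 FPKM in the control replicates against 12.98, 2.23 and 1.95 FPKM in the DOPAC replicates. Replicate 1 exceeded the mean of the other 2 by 5.14 times in the controls and 6.21 times with DOPAC. DOPAC minus control was -0.089 on the log2 scale (95% limits -1.91 and 1.73; adjusted p = 0.978), 0.57 without control replicate 1 and -0.16 without both libraries numbered 1. The exons of H2ax overlap the annotated gene Gm44335 and those of H2aj overlap Gm44364.

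H1f0 encodes the linker histone H1.0, typical of resting and differentiated cells, and lies at chr15:79028450-79030504. Its levels were 11.7, 7.10 and 6.78 FPKM without and 16.5, 7.02 and 7.95 FPKM with DOPAC. The libraries numbered 1 were again the highest of each group. The exons of H1f0 overlap Gm49544. Between treatments the difference was 0.22 on the log2 scale (95% limits -0.59 and 1.03; adjusted p = 0.859), 0.44 without control replicate 1 and 0.094 without both libraries numbered 1.

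Among the replication-dependent genes H4c9, at chr13:22040636-22041362 on the minus strand, was the most abundant and followed this pattern as well. It encodes histone H4 and measured 13.6, 7.26 and 8.36 FPKM in the control replicates against 13.9, 6.93 and 7.92 FPKM in the DOPAC replicates. The libraries numbered 1 stood apart from the other 4, and those 4 lay within 6.93 to 8.36 FPKM. Its log2 difference was -0.030 (95% limits -0.77 and 0.71; adjusted p = 0.983), or 0.21 without control replicate 1. The linker histone gene H1f2, at chr13:23738808-23740367, measured 4.05, 1.46 and 2.27 FPKM without and 5.13, 2.16 and 2.11 FPKM with DOPAC, a log2 difference of 0.19 (95% limits -0.66 and 1.04), or 0.47 without control replicate 1.

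H2bc11, near H4c9 at chr13:22043214-22043676, encodes histone H2B and measured 10.1, 2.08 and 3.11 FPKM in the control replicates against 4.50, 2.33 and 2.67 FPKM in the DOPAC replicates. Control replicate 1 was the highest and DOPAC replicate 1 the next, and the log2 difference was -0.35 (95% limits -1.49 and 0.78), and 0.19 without control replicate 1. H4c2, at chr13:23757013-23757409, had the lowest fold change of all members. It measured 5.18, 1.21 and 1.05 FPKM without and 1.32, 0.787 and 0.525 FPKM with DOPAC, and its exons overlap the gene 4930558J22Rik. DOPAC minus control was -0.72 (95% limits -1.74 and 0.31; adjusted p = 0.801), and -0.20 without control replicate 1.

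H2bc12, another H2B gene at chr13:22035870-22036345, changed sign between these comparisons. It measured 5.89, 1.19 and 1.20 FPKM in the control replicates against 1.98, 1.88 and 1.86 FPKM in the DOPAC replicates. With all 6 libraries the log2 difference was -0.15 (95% limits -1.19 and 0.90; adjusted p = 0.927). Without control replicate 1 it was 0.40 (95% limits 0.19 and 0.62; limma adjusted p = 0.295), and all 3 DOPAC libraries lay above both controls. In that comparison 3 of 22 members had DOPAC libraries above both controls, H2bc12, H2bc8 and H3f3b, beside 15.3% of all genes, and 0 of 22 lay below them, beside 21.5% of all genes.

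The remaining 6 replication-dependent genes (H1f1, H1f5, H2bc4, H2bc8, H2bc14 and H4c17) and H2bc13 had means of 0.875 to 1.38 FPKM. In each of these 7 genes control replicate 1 held the highest of the 6 values, at 1.83 to 2.85 FPKM. The other 2 controls lay between 0.0232 and 1.35 FPKM and the DOPAC libraries between 0.541 and 2.16 FPKM. At these levels the 5 libraries other than control replicate 1 overlapped in all but H2bc8 and H2bc13.

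**Figure D4:**
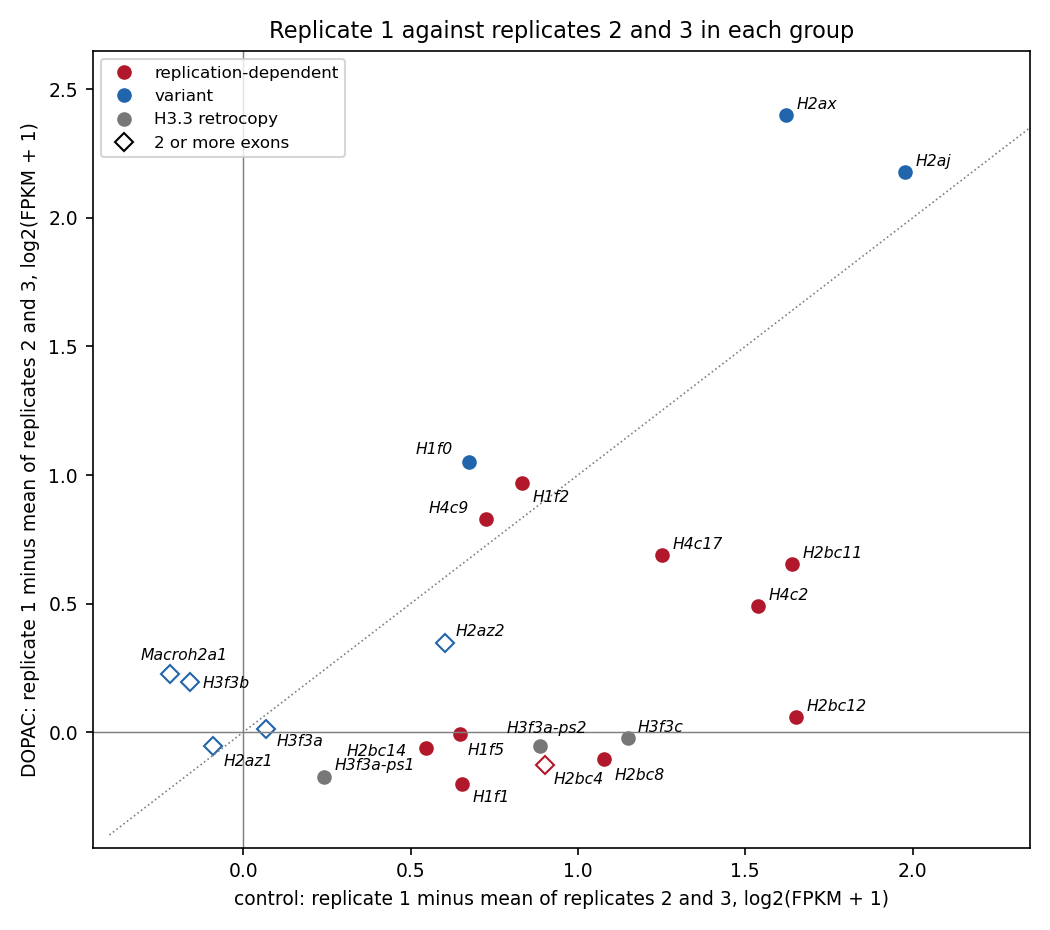
Difference between replicate 1 and the mean of replicates 2 and 3 on the log2(FPKM + 1) scale, in the controls (horizontal axis) and with DOPAC (vertical axis), for the 22 histone genes tested. Filled circles have 1 exon, open diamonds 2 or more, and colours give the class. H2ax and H2aj lie far up and to the right, and H2az1 and H3f3a lie near the origin. Single-exon replication-dependent genes lie to the right. On the vertical axis H1f1 (-0.20), H2bc8 (-0.11), H2bc14 (-0.061) and H1f5 (-0.0090) of these lie below 0, and the others above it.

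The excess in the libraries numbered 1 went with exon number and with GC content. Both of them lay above the other 4 libraries in 9 of the 22 members, beside 12.2% of all genes tested. These 9 were all among the 13 single-exon coding members tested, and 0 of the 6 coding members with more exons and 0 of the 3 retrocopies were. The same was seen outside the histones: 28.3% of 191 other single-exon coding genes and 10.5% of 9153 coding genes with more exons had both libraries highest. With a GC content of at least 60% in the transcript it was 11 of 14 other single-exon genes (78.6%). Among all 350 coding genes at that limit, whatever their exon number, it was 30%. H2ax, with 62.3% GC, H2bc11 and H4c17 are the tested single-exon members above that limit. The other members with both libraries numbered 1 highest lay below it, among them H2aj with 54.6% and H1f0 with 52.1%. The median difference between replicate 1 and the others was -0.28 on the log2 scale in the controls and -0.0090 with DOPAC over all genes tested. For the 13 single-exon histone genes it was 1.08 and 0.65. This pattern was looked for after the values were seen, and its part in the fold changes was not tested.

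**Figure D5:**
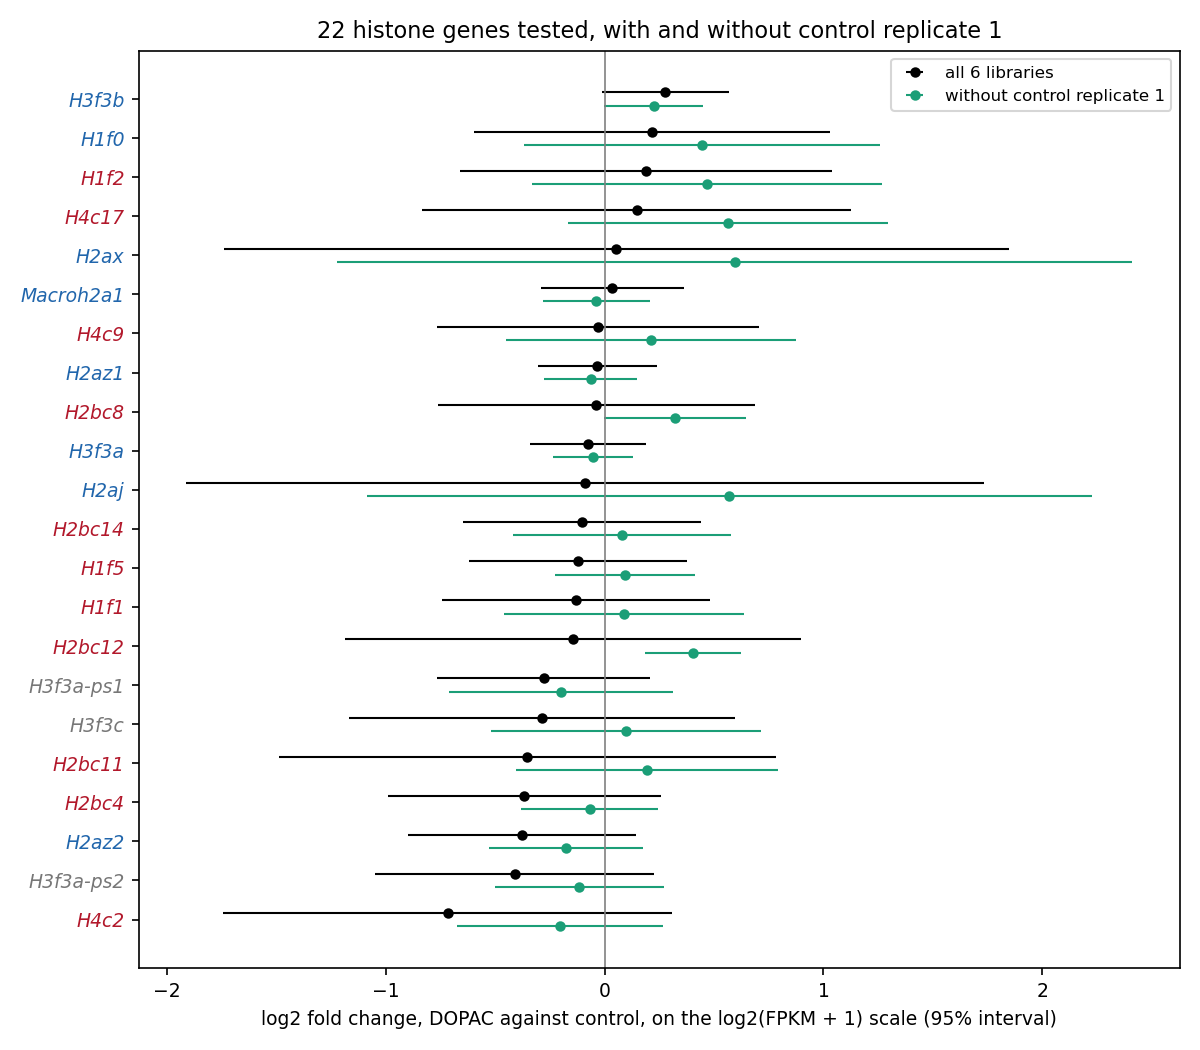
Log2 difference of the 22 histone genes tested, DOPAC against control, on the log2(FPKM + 1) scale, with 95% limma intervals, for all 6 libraries (black) and without control replicate 1 (green). Gene names are coloured by class. Of the black points 6 lie above 0 and of the green points 14, and the green interval of H2bc12 (0.19 to 0.62) is the one that does not include 0.

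The median over the members changed sign with 1 library. The median log2 difference of the 22 genes was -0.096, with 6 positive, beside 0.066 and 62.1% positive for all genes tested. Without control replicate 1 it was 0.096, with 14 positive, beside -0.011 and 47.3% for all genes. For the 11 replication-dependent genes the median went from -0.12 to 0.19 and for the 8 variant genes from 0.0012 to 0.094. Without both libraries numbered 1, an alternative added once the values were known, the 22 genes had a median of -0.024 beside -0.019 for all genes, the replication-dependent genes 0.10 and the variant genes -0.085. With the trend against transcript length removed in each library it was -0.014 beside -0.011.

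Genes that make, process or place histones were taken from lists, the named ones were chosen after their values were seen, and 0 genes of any of these lists passed the test over all genes. Of 20 genes for the transcription and 3′ processing of histone mRNA 19 were tested, 0 had an unadjusted p under 0.05, and the median log2 difference was 0.16, or 0.00098 without control replicate 1, when 2 were higher and 4 lower at an unadjusted p under 0.05 (5.57% and 8.89% of all genes were). The groups did not overlap, higher with DOPAC, in 6 of the 19, beside 12.4% of all genes. Slbp, whose product binds the stem-loops shown above, averaged 29.9 ± 5.20 FPKM without DOPAC (SD, n = 3) and 37.6 ± 2.12 FPKM with it (SD, n = 3). The difference was 0.34 on the log2 scale (95% limits -0.044 and 0.72), or 0.19 without control replicate 1. Its groups did not overlap. Eri1, an exonuclease that trims histone mRNA ends, had a log2 difference of 0.34, Casp8ap2 (FLASH), of the histone locus body, 0.57, and Npat, which switches on histone gene transcription in S phase, 0.51. Leaving out control replicate 1, these 3 values were 0.17, 0.17 and 0.14. The 4 lower genes of that comparison were Upf1, a helicase of mRNA decay, Sympk, a scaffold of the 3′ processing complex, Srrt (ARS2), which binds the cap complex, and Tut4, a uridylyl transferase. Their log2 differences were -0.43, -0.32, -0.29 and -0.23 without control replicate 1 and -0.12, -0.11, -0.17 and 0.16 with all 6 libraries, so Tut4 changed sign.

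Of 28 histone chaperone and deposition genes, all tested, 23 had positive log2 differences, beside 62.1% of all genes. Their median was 0.065, beside 0.066 for all genes, and 0 of the 28 had an unadjusted p under 0.05. Without control replicate 1 the median was -0.046 and 7 had an unadjusted p under 0.05, all lower with DOPAC, beside 8.89% of all genes. They were Ipo4, an importer of H3 and H4, Cabin1, Hira and Ubn1, which form the HIRA complex that deposits H3.3, and Tonsl, Supt6 and Chaf1a. Ipo4 had -0.39, Cabin1 -0.31, Hira -0.28 and Ubn1 -0.26 without that library, and -0.15, 0.014, -0.028 and 0.042 with all 6. The groups did not overlap, higher with DOPAC, in 3 of the 28 (Hjurp, Hat1 and Npm1), beside 12.4% of all genes. Those of Nasp overlapped. Hjurp, the chaperone of the centromeric H3 variant, had a log2 difference of 0.46 (95% limits -0.089 and 1.00), Hat1, which acetylates new H4, 0.24, and Nasp, a carrier of H3 and H4, 0.22. Without control replicate 1 these values were 0.20, 0.16 and 0.16. The 10 genes of H2A.Z exchange had a median of 0.13, or 0.0074 without control replicate 1, and 7 were positive and 3 negative. Vps72, an H2A.Z chaperone, had -0.33 (95% limits -0.75 and 0.088), or -0.20 without that library, and Srcap, the ATPase that installs H2A.Z, 0.29, or -0.26 without it. The 24 S phase genes had a median of 0.13, or -0.011 without that library, and 20 were positive, beside 62.1% of all genes. Ccne2, the cyclin that starts S phase, had 0.39, and the ribonucleotide reductase gene Rrm1 0.33, or 0.26 and 0.16 without control replicate 1. The groups did not overlap, higher with DOPAC, in 6 of the 24 (12.4% of all genes did so), these 2 among them, and neither passed over all genes (adjusted p = 0.801 each).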

How the data were processed

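RNA was sequenced from 3 control and 3 DOPAC libraries, grouped and numbered by their library names. The title of DOPAC replicate 1 misspells the treatment. The submitters' processing notes name cutadapt 1.9, HISAT2 2.2.1 and mm10. The sources used here do not give the expression estimator, annotation or gene filter. The kits, SMART-Seq HT and Nextera XT per the labels' protocols, do not mark strand. Per the file headers, the authors deposited FPKM per gene and library with a log2 fold change, p-values and adjusted p-values of an unnamed test. The deposited log2 fold change was reproducible from FPKM within 1e-06 in all 11175 rows as a difference of group means of log2(FPKM + 1).

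Values were analysed as log2(FPKM + 1), which understates differences of low genes, after leaving out 288 genes with a mean under 1 FPKM. limma 3.58.1 in R 4.3.3 compared DOPAC with control, with a mean-variance trend. Its p-values were corrected over all 10887 genes (Benjamini-Hochberg, threshold 0.05). The fit was tested on simulated data. All 23 members had gene models in GENCODE M21 (GRCm38), as had 99.2% of the genes tested. Identities were computed with biopython 1.88, exact tests with scipy 1.17.1 and figures with matplotlib 3.10.9. Log2 differences are printed for members with a mean of at least 5 FPKM or an unadjusted p under 0.05. H1f2, H2bc11, H4c2 and the retrocopies were added after their values were seen. Members and lists were chosen with earlier results of these data known.

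Replicate numbers come from the library names, and the labels tie them to no animal or day. Libraries with the same number deviated together from their group means (r across genes 0.34, 0.16 and 0.28). All 3 values exceeded 0.1, so the numbers were taken as pairs and fitted as a block in an alternative. The data do not settle the pairs 2 and 3, since control 2 with DOPAC 3 (0.24) and control 3 with DOPAC 2 (0.19) exceeded the 0.16 of pair 2. Further alternatives were other pseudocounts and filters, quantile normalization, equal medians, the length trend removed, library weights and each library left out.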

Additional observations from a re-analysis of the deposited data

How the results depend on the processing

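The histone genes past the threshold stayed at 0 in all 17 alternative fits. Over all genes 2 passed with library weights, 2 without control replicate 1 and 2 without both libraries numbered 1 (the last alternative was chosen after seeing the data), and 0 otherwise, so leaving out libraries gave 0 to 2. The replicate block gave 0 genes, 0 of them histone genes, and changed no call. The cause of these shifts was not tested. Signs of fold changes flipped as follows. With equal medians H2ax had -0.0058 and Macroh2a1 -0.023. With quantile normalization H2az1 had 0.017. With the length trend removed H4c9 had 0.087 and Macroh2a1 -0.10. With library weights H2ax had -0.089, Macroh2a1 -0.088, H4c9 0.015, H2bc11 0.051 and H2bc12 0.32. With the replicate block and without control replicate 1 H2ax had -0.21, Macroh2a1 -0.11 and H2bc12 0.39, as without both libraries numbered 1. Leaving out libraries gave -0.75 to 0.59 for H2ax, -0.82 to 0.57 for H2aj, -0.13 to 0.44 for H1f0, -0.13 to 0.47 for H1f2, -0.31 to 0.21 for H4c9, -0.73 to 0.19 for H2bc11, -0.42 to 0.40 for H2bc12, -0.11 to 0.11 for Macroh2a1 (-0.039 without DOPAC replicate 1) and -0.070 to 0.033 for H2az1. H3f3b, H3f3a, H2az2 and H4c2 kept their sign in every alternative run. For H3f3b, whose groups did not overlap, leaving out libraries could not have changed the sign. Leaving out libraries gave medians of -0.25 to 0.096 for the 22 genes, -0.28 to 0.19 for the replication-dependent and -0.11 to 0.21 for the variant genes, so their signs are not settled. The summed histone FPKM differed between groups (DOPAC minus control) by 33.2, and by -2.40 to 53.2 with 1 library left out. Depth is unknown, so counting error could not be given.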
